A study of Mus musculus with 9 samples.

Results

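The genes of the cell cycle that copy DNA, condense and divide the chromosomes and stop the cycle were followed in mouse liver as a list of 39 genes chosen by function, in 8 roles. A gene was read through the probe set that carries its symbol, and 36 of the 39 genes had one among 22142 probe sets in all. None of the 36 had more than 1 probe set, and Mcm7, Ccnb1 and Foxm1 are not analysed here. The values are log2 expression values that the authors made with the RMA algorithm, which corrects background, normalizes the arrays and summarises the probes, so a difference of 1 is a doubling of the signal.

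Liver RNA came from 9 wild type C57BL/6 mice, each on 1 array, 15 days after treatment, in 3 groups of 3. The first group received AAV-IFNα and AAV-L37pA together (the AAV combination), the second AAV-IFNα alone, and the third, Mock, was not injected. Both genes were carried by AAV8 vectors given into a vein and driven by the EF1α promoter, which is active in most cell types. IFNα is the interferon under study and L37pA is a peptide that mimics apolipoprotein A-I, the main protein of HDL. The labels give an age of 6 weeks. AAV-L37pA alone and a control vector were not tested on arrays, and the total vector dose was higher in the combination. Effects of IFNα and of an injected vector against Mock therefore cannot be told apart. Nor can those of L37pA and of the added vector dose between the treated groups. In whole liver, more cells of a cycling type and more RNA per cell cannot be told apart either.

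The adult liver is mostly quiescent. A cell that enters the cycle first releases E2F factors from the RB family, which opens the genes of S phase. The MCM helicase is then loaded on DNA by Cdc6 and Cdt1, and ribonucleotide reductase and thymidylate synthase supply nucleotides. In G2 and mitosis a later wave follows, in which CDK1 with its cyclins, the Aurora and Polo kinases and the spindle motors divide the chromosomes, and the anaphase-promoting complex then destroys the cyclins. Cdkn1a (p21) binds and blocks cyclin-dependent kinases and is a classical target of p53. Interferons are known to slow the division of many cell types, and dividing cells in an inflamed liver can be leukocytes as well as hepatocytes.

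The promoters of these genes carry short motifs of the factors that time them, and 6 are shown because they belong to genes called in these livers or, for Top2a, to a mitotic gene that did not pass the test. CHR elements, searched as TTTGAA and in a second form as TTCGAA, and CCAAT boxes, searched by the letters of their name, are features of the late wave. E2F motifs, searched as TTTCCCGC, TTTCGCGC, TTTGCCGC and TTTGGCGC, belong to the early one, and the p53 decamer is the short unit that p53 binds in pairs. Each line holds the 160 bases before the start site from RefSeq on GRCm38.p6, read 5′ to 3′ on the gene's strand, with matches on either strand in capitals, so a match on the other strand appears as its complement and overlapping matches are merged.
Mki67: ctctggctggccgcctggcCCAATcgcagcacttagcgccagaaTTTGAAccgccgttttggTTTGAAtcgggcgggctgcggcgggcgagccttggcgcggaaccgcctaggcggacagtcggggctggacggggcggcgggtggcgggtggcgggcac
Prc1: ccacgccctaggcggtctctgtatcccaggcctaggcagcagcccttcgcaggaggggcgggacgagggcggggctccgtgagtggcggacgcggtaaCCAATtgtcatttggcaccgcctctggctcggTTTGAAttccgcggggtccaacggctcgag
Kif11: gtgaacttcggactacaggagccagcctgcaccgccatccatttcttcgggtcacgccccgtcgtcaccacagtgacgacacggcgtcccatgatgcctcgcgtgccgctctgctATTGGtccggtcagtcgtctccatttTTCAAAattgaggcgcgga
Top2a: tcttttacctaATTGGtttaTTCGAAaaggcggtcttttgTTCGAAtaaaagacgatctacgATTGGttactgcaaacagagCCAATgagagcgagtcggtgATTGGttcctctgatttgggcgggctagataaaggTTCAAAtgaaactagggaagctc
Mcm6: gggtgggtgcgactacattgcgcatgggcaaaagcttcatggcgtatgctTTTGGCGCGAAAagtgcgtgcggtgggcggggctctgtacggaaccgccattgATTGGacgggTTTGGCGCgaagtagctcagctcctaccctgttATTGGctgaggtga
Cdkn1a: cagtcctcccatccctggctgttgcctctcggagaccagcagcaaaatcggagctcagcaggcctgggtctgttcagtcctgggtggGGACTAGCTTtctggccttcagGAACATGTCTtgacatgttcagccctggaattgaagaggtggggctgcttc
The stretches lie at chr7:135716380-135716539, minus strand (Mki67), chr7:80294316-80294475, plus strand (Prc1, the second of its start sites), chr19:37376222-37376381, plus strand (Kif11), chr11:99024190-99024349, minus strand (Top2a), chr1:128359706-128359865, minus strand (Mcm6) and chr17:29090819-29090978, plus strand (Cdkn1a, the first of its start sites). Mki67 held 2 CHR matches, at 116 and 98 bases before the start, and Top2a held 4 CHR and 6 CCAAT matches within the whole window. Mcm6 held 3 E2F matches and no CHR. The Cdkn1a stretch held none of the cycle motifs, but 2 p53 decamers at 73 and 51 bases before the start. The window of the second Cdkn1a start site held no match to any motif searched.

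Windows of 300 bases, 250 before and 50 after the start, were found for 32 of the 39 genes, 35 windows in all, and compared by description only with all 32851 windows of the table. A CHR was in 51.4% of the windows of these genes and 19.2% of all windows. A CCAAT box was in 77.1% and 37.4%, an E2F motif in 20% and 2.26%, and a p53 decamer in 11.4% and 8.36%. Of the genes called higher with AAV-IFNα against Mock that had a window, 6 of 10 held a CHR and 8 of 10 a CCAAT box, and of those not called, 10 of 20 and 15 of 20. An E2F motif was held by 1 of 10 and 5 of 20, and a p53 decamer by 2 of 10 and 2 of 20. No difference between called and uncalled genes was tested.

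Many signals of this list lay near the low end of the arrays. Array medians over all probe sets were 5.78 to 5.83, and the study's filter on low values asks for at least 2 samples of 1 condition above 5. It kept 30 of the 36 genes and 14715 of all probe sets. The 6 genes under it, Cdc6, Cdk1, Bub1, Kif11, Kif20a and Cdc20, had no array above 5. Another 5 genes, Ccne2, Bub1b, Plk1, Cenpe and Prc1, passed with no Mock array above 5, so they entered the test through a treated group. The mean lay under 5 for 11 genes in the combination, 8 with AAV-IFNα and 14 in Mock, and 18 genes were above 5 on every array. Because the filter admits a gene through the group where it is high, counts over the list are given from a limma fit of all 22142 probe sets. Adjusted p-values of single genes are from the filtered fit where the gene passed it. For Bub1b, Plk1, Cenpe and Prc1 those of the fit of all probe sets are given beside them. P-values are two-sided and were adjusted by Benjamini-Hochberg over every probe set in the fit, and a gene was called at an adjusted p under 0.05. The labels name the replicates only as separate samples of a group, and precision is limited by the 3 arrays of each.

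**Figure D1:**
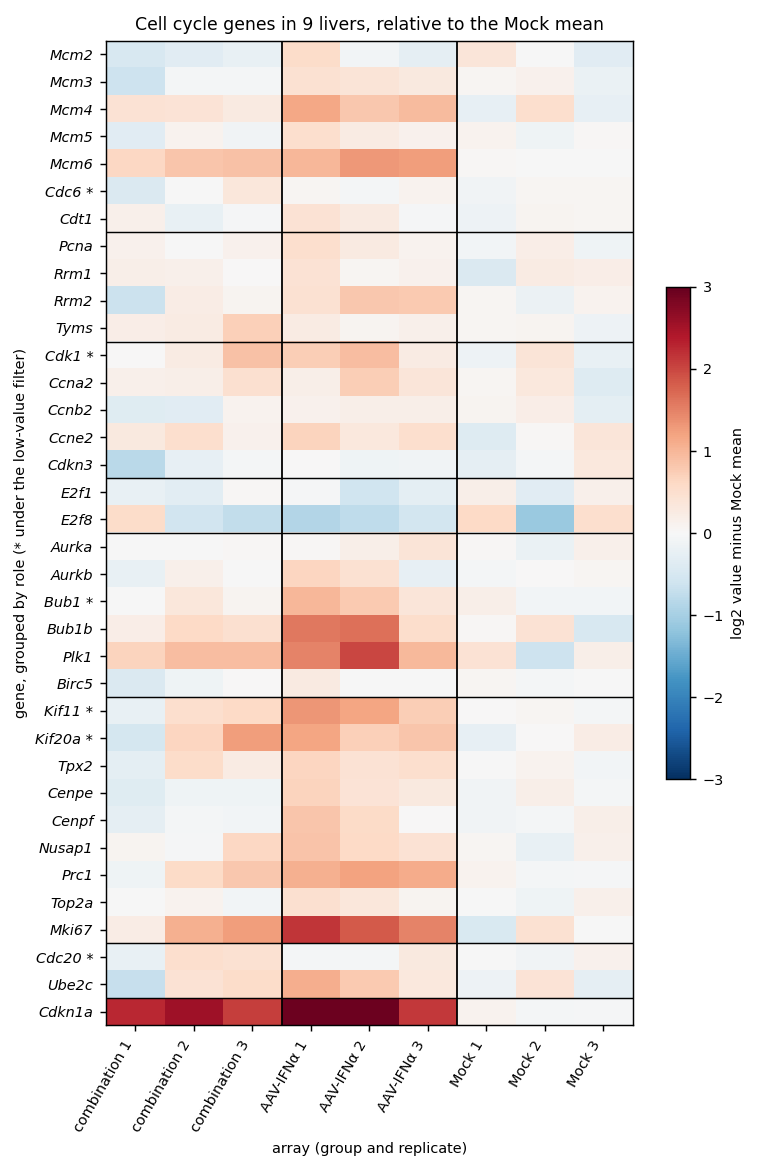
Log2 value minus the Mock mean of the same gene (colour) for the 36 genes (rows, grouped by role) on each of the 9 arrays (columns, 3 per group); an asterisk marks the 6 genes under the low-value filter. AAV-IFNα columns are mostly red, combination replicate 1 is pale or blue in most rows, and Cdkn1a is the one row that is deep red in both treated groups.

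Livers treated with AAV-IFNα held more RNA of some cell cycle genes than Mock livers. The proliferation marker Mki67, the mitotic kinase Plk1, the checkpoint kinases Bub1 and Bub1b, the spindle genes Kif11, Prc1 and Nusap1, the helicase subunits Mcm4 and Mcm6, the reductase subunit Rrm2 and the CDK inhibitor Cdkn1a were higher. In the fit of all probe sets, 11 of the 36 genes (30.6%) were called higher, against 6.99% of all probe sets, and 0 were called lower, against 3.24%. By role these were 4 of 9 spindle and chromosome genes, 3 of 6 mitotic kinase and checkpoint genes and 2 of 7 helicase and loader genes. The others were 1 of 4 clamp and nucleotide genes and Cdkn1a. No gene was called among the cyclins with CDK1 and Cdkn3, the E2F factors or the genes of mitotic exit. An unadjusted p under 0.05 was reached by 20 genes, all higher, against 2899 higher and 2842 lower of 22142 probe sets. Differences were positive for 33 of 36 genes, against 9191 of 22142 probe sets. The median log2 fold change was 0.44, against -0.06 over all probe sets. All 3 AAV-IFNα arrays lay above all 3 Mock arrays for 16 genes (44.4%), against 14.3% of all probe sets. In the filtered fit, in which 16.3% of probe sets were called in either direction, 10 of the 30 genes were called, all higher. Among them were Bub1b, Plk1, Cenpe and Prc1, which had no Mock array above 5. Leaving out 1 array at a time, the fit of all probe sets called 7 to 14 genes higher, with 7 without AAV-IFNα replicate 2.

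In the AAV combination fewer of these genes passed the test against Mock. Cdkn1a and Mcm6 were called higher, 2 of 36 genes (5.56%), against 2.43% of all probe sets, and 0 were called lower, against 0.519%. Differences were positive for 22 genes and negative for 14, against 9656 and 12486 of all probe sets. The median log2 fold change was 0.10, against -0.04 over all probe sets. The filtered fit called the same pair of genes, against 5.21% of its probe sets in either direction. Without combination replicate 1 the filtered fit also called Mki67 (1.16, adjusted p = 0.0226) and Prc1 (0.70, adjusted p = 0.0149), and the fit of all probe sets called 5 genes.

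Set against AAV-IFNα directly, the combination had lower values for 32 of the 36 genes, against 10699 of 22142 probe sets. The median log2 fold change was -0.36, against 0.01 over all probe sets. Only Cenpe, a motor that carries chromosomes along the spindle, was called lower in the fit of all probe sets, 1 of 36 (2.78%) against 1.4%, and 0 were called higher, against 0.23%. In the filtered fit 2.6% of probe sets were called in either direction, and Cenpe was the 1 member. An unadjusted p under 0.05 was reached by 16 genes, all lower in the combination, against 1393 lower and 784 higher of 22142 probe sets. All 3 combination arrays lay under all 3 AAV-IFNα arrays for 14 genes (38.9%), against 8.47% of all probe sets. This comparison shares the AAV-IFNα arrays with the comparison against Mock, so their opposite directions are not independent of each other. Without AAV-IFNα replicate 3 the fit of all probe sets called 5 genes lower, and without AAV-IFNα replicate 1 or 2 or combination replicate 1 or 2 it called 0.

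**Figure D2:**
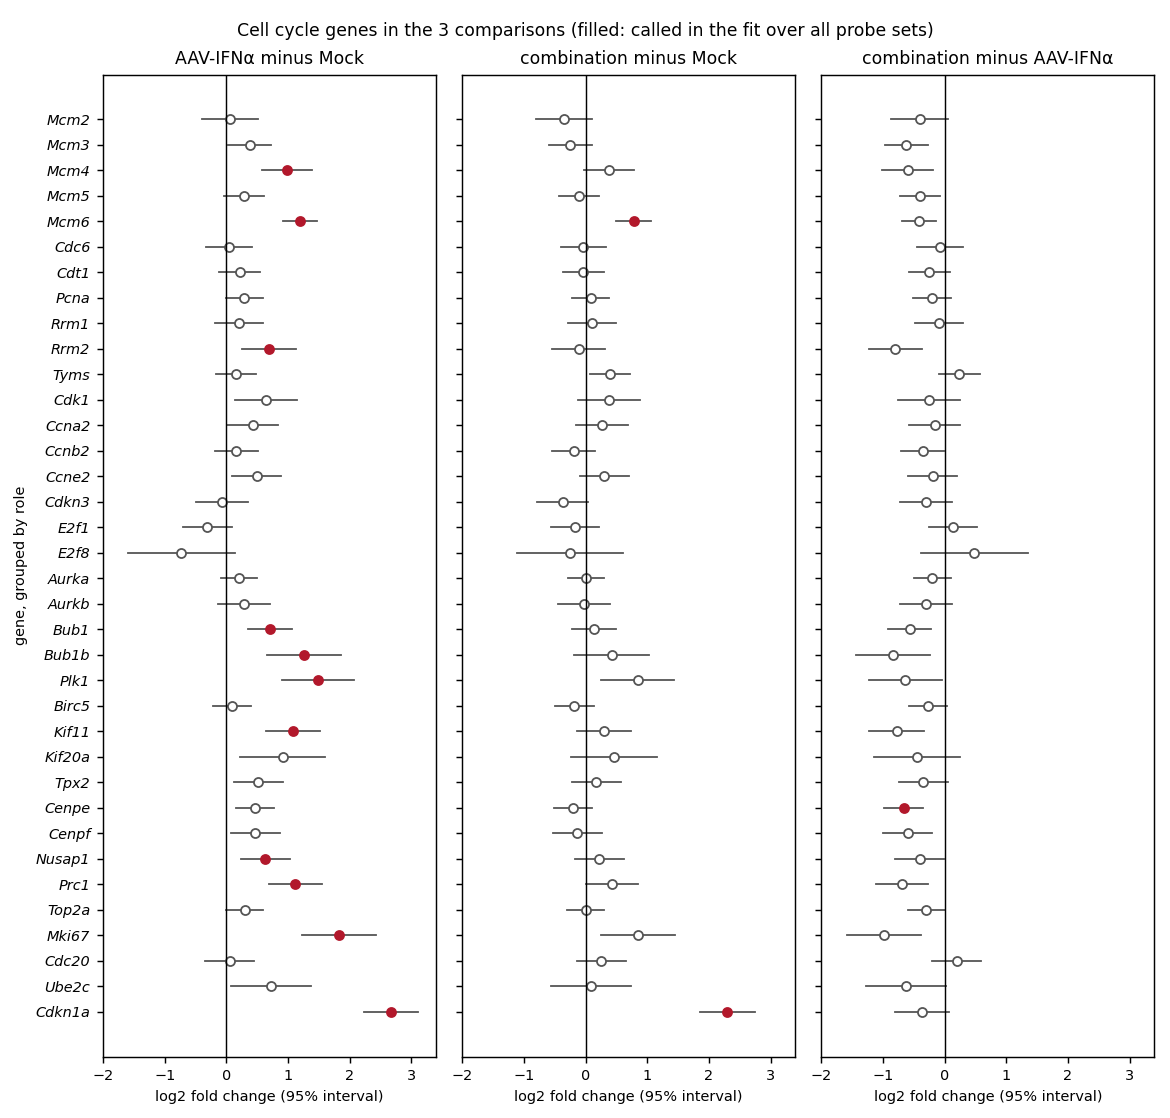
Log2 fold change (horizontal axis, with its 95% interval from limma) of each of the 36 genes (rows, grouped by role) in the 3 comparisons; filled points were called in the fit of all probe sets. Filled points number 11 for AAV-IFNα minus Mock, 2 for the combination minus Mock and 1 for the combination minus AAV-IFNα, where 32 points lie left of 0.

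Of the replication helicase and its loaders, Mcm6 changed most. It had log2 values of 6.05, 6.26 and 6.32 in the combination, 6.44, 6.74 and 6.70 with AAV-IFNα and 5.46, 5.41 and 5.42 in Mock. No array overlapped between the groups, and the order was AAV-IFNα, combination, Mock. Mcm6 rose by 1.20 with AAV-IFNα (SE 0.13, adjusted p = 3.29e-05, limma) and by 0.78 in the combination (SE 0.13, adjusted p = 0.00338), both relative to Mock. The combination minus AAV-IFNα was -0.42 (95% interval -0.70 to -0.13, adjusted p = 0.15). Mcm4, another subunit of the ring, had 5.43, 5.41 and 5.27 in the combination, 6.17, 5.80 and 5.95 with AAV-IFNα and 4.74, 5.49 and 4.75 in Mock. It rose by 0.98 with AAV-IFNα (SE 0.19, adjusted p = 0.00324), and Mock replicate 2 lay above both other Mock arrays. The combination differed from Mock by 0.37 (adjusted p = 0.258), a difference that was called without Mock replicate 2 (0.62, adjusted p = 0.0289).

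The other subunits of the ring were flatter. Mcm2 had 5.65, 5.78 and 5.89 in the combination, 6.67, 6.04 and 5.84 with AAV-IFNα and 6.48, 6.11 and 5.79 in Mock, so the AAV-IFNα and Mock arrays overlapped fully (0.06, adjusted p = 0.873). Mcm3 had 5.66, 6.21 and 6.21 in the combination, 6.73, 6.66 and 6.56 with AAV-IFNα and 6.34, 6.41 and 6.08 in Mock. All combination arrays of Mcm3 were under all AAV-IFNα arrays, a difference of -0.62 that missed the threshold (SE 0.16, adjusted p = 0.0684). Mcm5 averaged 5.47 ± 0.23 in the combination, 5.87 ± 0.19 with AAV-IFNα and 5.58 ± 0.12 in Mock (SD, n = 3 each). Of the loaders, Cdt1 averaged 6.33 ± 0.19, 6.58 ± 0.23 and 6.37 ± 0.12 in the same order of groups. Cdc6 averaged 4.42 ± 0.40, 4.50 ± 0.09 and 4.46 ± 0.09, under the filter throughout. None of these was called in any comparison.

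Among the genes of the sliding clamp and nucleotide supply, Rrm2, the regulated subunit of ribonucleotide reductase, stood out. It had 5.34, 6.21 and 6.07 in the combination, 6.45, 6.80 and 6.77 with AAV-IFNα and 6.05, 5.82 and 6.09 in Mock. The AAV-IFNα arrays lay above both other groups, whose arrays overlapped. Rrm2 rose by 0.69 with AAV-IFNα relative to Mock (SE 0.20, adjusted p = 0.0346), a call that ended without any 1 Mock array and without AAV-IFNα replicate 2 or 3 (adjusted p = 0.0601 to 0.116). Between the combination and AAV-IFNα it differed by -0.80 (SE 0.20, adjusted p = 0.0569). Pcna, the clamp that holds the polymerase on DNA, had 9.04, 8.91 and 9.05 in the combination, 9.42, 9.20 and 9.02 with AAV-IFNα and 8.84, 9.12 and 8.80 in Mock. Its groups overlapped, with 0.29 between AAV-IFNα and Mock (95% interval -0.01 to 0.60, adjusted p = 0.173). Rrm1, the partner of Rrm2, averaged 6.06 ± 0.09 in the combination, 6.15 ± 0.20 with AAV-IFNα and 5.95 ± 0.38 in Mock. Tyms, thymidylate synthase, averaged 7.04 ± 0.29, 6.80 ± 0.08 and 6.64 ± 0.13 (SD, n = 3 each), and neither was called.

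The cyclins, CDK1 and the phosphatase Cdkn3 gave no call. Cdk1, the kinase that drives entry into mitosis, had 3.39, 3.62 and 4.27 in the combination, 4.12, 4.30 and 3.64 with AAV-IFNα and 3.23, 3.76 and 3.15 in Mock, all below 5. The groups overlapped, and 0.64 between AAV-IFNα and Mock missed the threshold in the fit of all probe sets (SE 0.24, adjusted p = 0.104). Without Mock replicate 2 it was called (0.83, adjusted p = 0.0494). Ccna2, the cyclin of S phase and G2, averaged 5.56 ± 0.18 in the combination, 5.72 ± 0.29 with AAV-IFNα and 5.29 ± 0.36 in Mock. Ccnb2, a cyclin of mitosis, averaged 6.10 ± 0.26, 6.46 ± 0.03 and 6.30 ± 0.25, and Ccne2, a cyclin of S phase entry, 4.87 ± 0.19, 5.06 ± 0.18 and 4.57 ± 0.38. Cdkn3, which removes an activating phosphate from cyclin-dependent kinases, averaged 5.27 ± 0.39, 5.58 ± 0.08 and 5.65 ± 0.29 (SD, n = 3 each).

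The E2F factors of the list did not follow the other genes. E2f1, an activator of S phase genes, had 5.04, 4.93 and 5.29 in the combination, 5.23, 4.66 and 4.97 with AAV-IFNα and 5.44, 4.93 and 5.42 in Mock. Its difference of -0.31 between AAV-IFNα and Mock missed the threshold (95% interval -0.70 to 0.08, adjusted p = 0.262). E2f8, a repressor of E2F targets, was the most scattered gene of the list, with 7.98, 6.86 and 6.70 in the combination, 6.54, 6.68 and 6.88 with AAV-IFNα and 8.03, 6.33 and 7.93 in Mock. Its highest arrays were 2 from Mock and 1 from the combination, and its SD in Mock was 0.96. Together with Cdkn3 these were the 3 genes with a negative difference between AAV-IFNα and Mock.

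Of the mitotic kinases and checkpoint genes, Plk1, the Polo kinase of mitotic entry and spindle assembly, had 4.90, 5.17 and 5.17 in the combination, 5.73, 6.23 and 5.20 with AAV-IFNα and 4.67, 3.61 and 4.41 in Mock. No array overlapped between the groups, and Mock was under 5 throughout. Plk1 rose by 1.49 with AAV-IFNα (SE 0.27, adjusted p = 0.00235), and 0.85 between the combination and Mock missed the threshold (SE 0.27, adjusted p = 0.0911). In the limma fit of all probe sets its adjusted p-values were 0.00242 and 0.112. Bub1b, which holds back anaphase until chromosomes are attached, had 3.84, 4.22 and 4.11 in the combination, 5.22, 5.29 and 4.17 with AAV-IFNα and 3.67, 4.07 and 3.16 in Mock. AAV-IFNα replicates 1 and 2 were apart from all other arrays, and replicate 3 lay within the range of the combination. Bub1b rose by 1.26 with AAV-IFNα (SE 0.28, adjusted p = 0.00824), and without AAV-IFNα replicate 1 or 2 it no longer passed the filter. Its adjusted p was 0.00905 in the limma fit of all probe sets. Bub1, a kinase of the same checkpoint that lay under the filter, had 3.24, 3.58 and 3.34 in the combination, 4.23, 4.02 and 3.62 with AAV-IFNα and 3.41, 3.17 and 3.16 in Mock. It was called in the fit of all probe sets (0.71, SE 0.17, adjusted p = 0.0137), and the call ended without AAV-IFNα replicate 1 or 2 or Mock replicate 3 (adjusted p = 0.0515 to 0.0712).

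Both Aurora kinases and survivin moved little. Aurka, the Aurora kinase of the spindle poles, averaged 5.37 ± 0.03 in the combination, 5.57 ± 0.18 with AAV-IFNα and 5.37 ± 0.17 in Mock. Aurkb, the Aurora kinase of the chromosomal passenger complex, averaged 5.38 ± 0.18, 5.68 ± 0.47 and 5.40 ± 0.06. Birc5, which encodes survivin of the same complex, averaged 6.53 ± 0.23, 6.80 ± 0.17 and 6.71 ± 0.06 (SD, n = 3 each). None of these passed the test in any comparison.

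The spindle, kinetochore and chromosome genes included the largest change of a proliferation gene. Mki67 encodes Ki-67, the coat of mitotic chromosomes and the common marker of cycling cells. It had log2 values of 5.76, 6.61 and 6.80 in the combination, 7.69, 7.39 and 7.04 with AAV-IFNα and 5.10, 6.01 and 5.53 in Mock. All AAV-IFNα arrays lay above all others, and combination replicate 1 lay inside the Mock range. Mki67 rose 3.55-fold with AAV-IFNα, a log2 fold change of 1.83 (SE 0.28, adjusted p = 0.000554). In the combination 0.85 against Mock (SE 0.28, adjusted p = 0.0957) and -0.98 against AAV-IFNα (SE 0.28, adjusted p = 0.0999) both missed the threshold. The call against Mock was made without combination replicate 1, without Mock replicate 2 (1.08, adjusted p = 0.0426) and with array weights (1.08, adjusted p = 0.0237).

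Prc1, which bundles the microtubules of the central spindle, had 4.34, 5.05 and 5.28 in the combination, 5.53, 5.66 and 5.57 with AAV-IFNα and 4.56, 4.40 and 4.43 in Mock. The AAV-IFNα arrays were tight and apart from both other groups, and combination replicate 1 was under all Mock arrays. Prc1 rose by 1.12 with AAV-IFNα (SE 0.20, adjusted p = 0.00168), and -0.70 between the combination and AAV-IFNα missed the threshold (SE 0.20, adjusted p = 0.0984). In the limma fit of all probe sets its adjusted p-values were 0.00182 and 0.121. Kif11, the motor that pushes the spindle poles apart and lay under the filter, had 3.46, 4.18 and 4.27 in the combination, 4.99, 4.86 and 4.40 with AAV-IFNα and 3.68, 3.73 and 3.62 in Mock. It was called in the fit of all probe sets (1.08, SE 0.20, adjusted p = 0.00374). Nusap1, which links microtubules to chromosomes, had 5.33, 5.22 and 5.87 in the combination, 6.10, 5.85 and 5.69 with AAV-IFNα and 5.32, 5.02 and 5.41 in Mock. It rose by 0.63 with AAV-IFNα (SE 0.18, adjusted p = 0.0328), and the call ended without AAV-IFNα replicate 1 or 2 or Mock replicate 1 or 2 (adjusted p = 0.0623 to 0.122).

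Cenpe had 4.44, 4.68 and 4.69 in the combination, 5.49, 5.23 and 5.11 with AAV-IFNα and 4.70, 4.99 and 4.76 in Mock. The combination lay under every Mock array as well as every AAV-IFNα array, by small steps and at values under 5. Cenpe fell by 0.67 in the combination relative to AAV-IFNα (SE 0.14, adjusted p = 0.026; adjusted p = 0.0331 in the limma fit of all probe sets). The call ended without AAV-IFNα replicate 1 or 2 or any 1 combination array (adjusted p = 0.0581 to 0.142). With AAV-IFNα it was 0.46 above Mock (SE 0.14, adjusted p = 0.0442), a call that was lost in the fit of all probe sets (adjusted p = 0.0594) and when any 1 of 6 arrays was left out. Top2a, the topoisomerase that untangles chromosomes and often moves with Mki67 in dividing cells, had 5.87, 6.00 and 5.79 in the combination, 6.36, 6.23 and 5.96 with AAV-IFNα and 5.87, 5.76 and 6.03 in Mock. Its groups overlapped between AAV-IFNα and Mock, with 0.30 between them (95% interval -0.0027 to 0.60, adjusted p = 0.16), and the combination differed from Mock by 0.0002 (95% interval -0.30 to 0.30).

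The remaining spindle genes were not called. Tpx2, which activates Aurka on the spindle, averaged 5.09 ± 0.43 in the combination, 5.44 ± 0.11 with AAV-IFNα and 4.92 ± 0.09 in Mock. Cenpf, a kinetochore protein, averaged 4.80 ± 0.12, 5.40 ± 0.42 and 4.94 ± 0.15. Kif20a, a motor of cytokinesis under the filter, averaged 3.77 ± 0.91, 4.22 ± 0.23 and 3.30 ± 0.23 (SD, n = 3 each). For all 3 genes the AAV-IFNα mean was the highest. Of the genes of mitotic exit, Ube2c, the enzyme that supplies ubiquitin to the anaphase-promoting complex, averaged 5.56 ± 0.69 in the combination, 6.20 ± 0.39 with AAV-IFNα and 5.47 ± 0.35 in Mock (0.73 between AAV-IFNα and Mock, adjusted p = 0.114). Cdc20, its activator, lay under the filter at 4.33 ± 0.41, 4.13 ± 0.20 and 4.07 ± 0.11 (SD, n = 3 each).

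**Figure D3:**
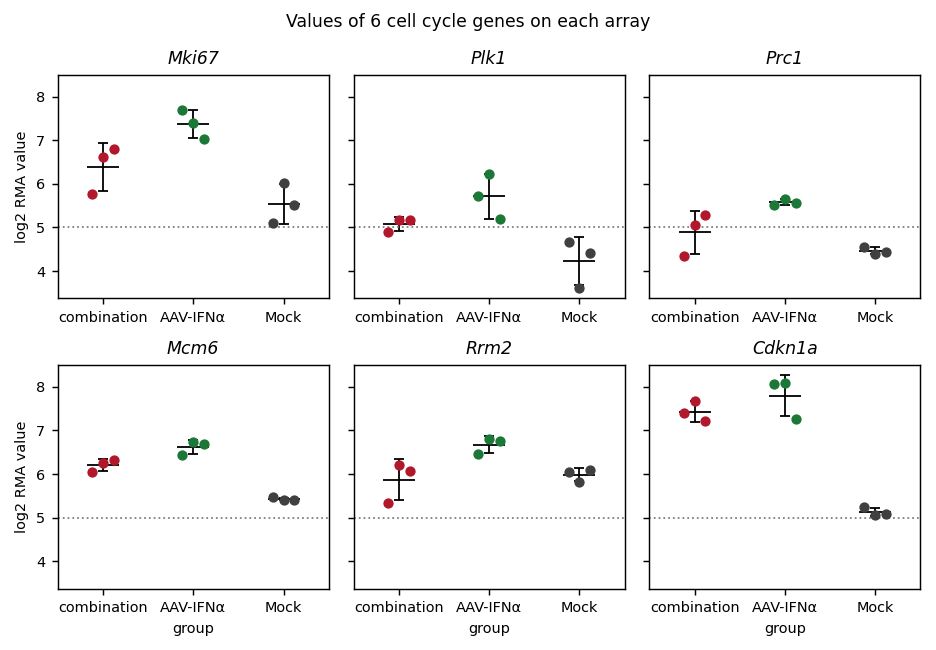
Log2 RMA value (vertical axis) of 6 genes on each array (points, in replicate order), with the mean (long bar) and SD (error bar) of each group of 3; the dotted line marks the value of 5 used by the low-value filter. For Mki67, Prc1, Mcm6 and Rrm2 the AAV-IFNα points lie above all others, whereas Cdkn1a is 7.21 to 8.08 in both treated groups and 5.06 to 5.23 in Mock.

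Cdkn1a, the inhibitor of the cycle, had the largest log2 fold change of the 36 genes against Mock in both treated groups. It had log2 values of 7.40, 7.68 and 7.21 in the combination, 8.07, 8.08 and 7.25 with AAV-IFNα and 5.23, 5.06 and 5.09 in Mock. Both treated groups lay above Mock without overlap, and they overlapped each other through AAV-IFNα replicate 3. Cdkn1a rose 6.37-fold with AAV-IFNα, a log2 fold change of 2.67 (SE 0.20, adjusted p = 1.29e-06), and 4.93-fold in the combination, a log2 fold change of 2.30 (SE 0.20, adjusted p = 1.26e-05). The combination minus AAV-IFNα was -0.37 (95% interval -0.81 to 0.07, adjusted p = 0.543). That difference was called without AAV-IFNα replicate 3 (-0.64, adjusted p = 0.0495).

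Some p53 target and stress arrest genes other than Cdkn1a were also called higher in both treated groups. The activity of p53 was not measured. Of 28 p53 targets and stress arrest genes, 26 were measured. With AAV-IFNα 9 were called higher in the filtered fit, with a median log2 fold change of 0.33 and 6 negative differences. In the combination 9 were also called higher against Mock, with a median of 0.34 and 7 negative differences, and both comparisons share the Mock arrays. The fit of all probe sets gave the same counts, 34.6% of the 26 genes, against 6.99% of all probe sets with AAV-IFNα and 2.43% in the combination. Ccng1, a cyclin-like p53 target, had 9.71, 9.73 and 9.71 in the combination, 9.36, 9.73 and 9.31 with AAV-IFNα and 8.25, 8.49 and 8.24 in Mock. It rose by 1.39 in the combination (adjusted p = 3.49e-05) and by 1.14 with AAV-IFNα (adjusted p = 9.23e-05). Trp53inp1, a cofactor of p53 in stress, rose by 1.58 in the combination (adjusted p = 6.2e-05) and by 1.89 with AAV-IFNα (adjusted p = 5e-06). Eda2r, a receptor of the TNF receptor family, rose by 1.52 in the combination (adjusted p = 0.000946). The death receptor Fas rose by 1.23 with AAV-IFNα (adjusted p = 0.000136). Between the treated groups 1 of the 26 was called, Pmaip1 (Noxa, a promoter of apoptosis), which had 4.57, 5.04 and 4.94 in the combination, 5.89, 5.75 and 5.42 with AAV-IFNα and 4.89, 5.03 and 4.88 in Mock. It fell by 0.84 in the combination relative to AAV-IFNα (adjusted p = 0.0145). Its combination and Mock arrays overlapped. In the fit of all probe sets 1 of the 26 was called lower between the treated groups (3.85%, against 1.4% of all probe sets). Leaving out 1 array at a time, the fit of all probe sets called 5 to 10 of the list higher in the combination and 7 to 9 with AAV-IFNα.

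The wider mitotic gene set was more mixed than the spindle genes, all 9 of which were positive with AAV-IFNα, with a median of 0.63. Of 75 symbols of other mitosis genes, some of them older and newer names of 1 gene, 69 had a probe set. Gtse1 was also in the p53 list. With AAV-IFNα against Mock, differences were positive for 50 and negative for 19. The filter kept 41, and in the filtered fit 10 were called higher and 0 lower. In the combination 3 were called higher against Mock, and 1 was called lower against AAV-IFNα. Their median log2 fold change was 0.25 with AAV-IFNα, 0.07 in the combination and -0.22 between the treated groups. Smc4, a subunit of the condensin that compacts chromosomes, had 6.19, 6.61 and 6.46 in the combination, 7.11, 6.95 and 6.72 with AAV-IFNα and 5.50, 5.27 and 5.91 in Mock. It rose by 0.86 in the combination (adjusted p = 0.0139), and by 1.37 with AAV-IFNα (adjusted p = 0.000149), with no overlap among the groups. Hmgb2, a chromatin protein of cycling cells, had 6.51, 6.21 and 6.43 in the combination, 7.44, 6.93 and 6.95 with AAV-IFNα and 5.95, 5.92 and 6.08 in Mock. It rose by 1.12 with AAV-IFNα against Mock (adjusted p = 0.00027) and was the gene called lower in combination livers than in AAV-IFNα livers (-0.72, adjusted p = 0.0272). In the combination Stmn1, which destabilises microtubules, and Pttg1 (securin) rose by 1.07 (adjusted p = 0.0372) and 0.53 (adjusted p = 0.0495). The fit of all probe sets called 15 of the 69 genes higher with AAV-IFNα (21.7%, against 6.99% of all probe sets) and 2 in the combination (2.9%, near the 2.43% of all probe sets). With 1 array left out it called 10 to 17 with AAV-IFNα, with 10 without AAV-IFNα replicate 1 or Mock replicate 3. In the combination it called 0 to 3, with 0 without Mock replicate 1 or 2 or combination replicate 2 or 3, and 1 without AAV-IFNα replicate 2 or Mock replicate 3. Between the treated groups the fit of all probe sets called 1 of the 69 lower (1.45%, near the 1.4% of all probe sets). With 1 array left out it called 0 to 2, with 0 without AAV-IFNα replicate 1 or 2 or combination replicate 1 or 2.

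The wider replication set moved less. Of 46 other genes of replication and S phase, 44 were measured, 3 were called higher with AAV-IFNα in the filtered fit and 0 lower, and the median was 0.13. Differences with AAV-IFNα were positive for 30 genes and negative for 14. All AAV-IFNα arrays lay above all Mock arrays for 10 genes (22.7%, against 14.3% of all probe sets). They lay under all Mock arrays for 2, Mcm10 and Pola1 (4.55%, against 3523 of 22142 probe sets). In the combination 1 was called higher against Mock, with a median of 0.00, and 0 were called between the treated groups, with a median of -0.17. Gins1, a subunit of the active helicase, had 4.92, 5.14 and 5.28 in the combination, 5.11, 5.22 and 5.38 with AAV-IFNα and 4.18, 4.45 and 4.79 in Mock. It rose in the combination (log2 fold change 0.65, adjusted p = 0.04), although not in the fit of all probe sets, and with AAV-IFNα (0.77, adjusted p = 0.00661). With AAV-IFNα, Brca1 of homologous repair rose by 0.87 (adjusted p = 0.0108) and Dnmt1, which copies DNA methylation to the new strand, by 0.78 (adjusted p = 0.0216). AAV-IFNα replicate 1 of Dnmt1, at 7.40, stood above the other AAV-IFNα arrays at 6.71 and 6.57. In the fit of all probe sets 4 of the 44 genes (9.09%) were called higher with AAV-IFNα, near the 6.99% of all probe sets, and 2 to 5 with 1 array left out, with 2 without AAV-IFNα replicate 1 or Mock replicate 3.

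Among genes of cycle entry and its control, 2 D-type cyclins, Myc and some factors of the E2F and RB families, repressors among them, were called higher. Of 12 G1 cyclins and cyclin-dependent kinases, 11 were measured and 2 rose with AAV-IFNα, Ccnd2 by 0.96 (adjusted p = 0.000861) and Ccnd3 by 0.46 (adjusted p = 0.0218), both D-type cyclins, which the fit of all probe sets also called (2 of 11, against 6.99% of all probe sets). With 1 array left out it called 1 or 2, with 1 without AAV-IFNα replicate 1 or 2 or Mock replicate 2 or 3. Ccnd2 had 7.62, 7.53 and 7.66 in the combination, 8.34, 8.18 and 7.99 with AAV-IFNα and 7.53, 7.07 and 7.03 in Mock. No gene of this list was called in either comparison of the combination. Of the 6 other CDK inhibitors, Cdkn1c (p57) fell by 0.43 with AAV-IFNα (adjusted p = 0.0381), a call absent from the fit of all probe sets, and no other was called. Cdkn1c averaged 6.26 in the combination, 6.24 with AAV-IFNα and 6.68 in Mock. All combination arrays of Cdkn1c and Cdkn2b lay under all Mock arrays, without a call, as for 2790 of 22142 probe sets. Cdkn2c (p18) had all 3 AAV-IFNα arrays above all 3 Mock arrays, as had 14.3% of all probe sets. Its difference of 0.27 missed the threshold (adjusted p = 0.262). The 18 factors of the E2F, RB, MYB and MYC families went both ways. With AAV-IFNα against Mock 9 differences were positive and 9 negative, with a median of 0.07, against -0.06 over all probe sets. In the combination 11 were positive and 7 negative, with a median of 0.09. Called higher were 5 with AAV-IFNα and 3 in the combination against Mock, and 0 were called lower. The fit of all probe sets gave the same counts, against 6.99% of all probe sets called higher with AAV-IFNα and 2.43% in the combination. With 1 array left out it called 3 to 5 with AAV-IFNα, with 3 without AAV-IFNα replicate 1 or 2, Mock replicate 2 or combination replicate 2. In the combination it called 1 to 3, with 1 without Mock replicate 3 or combination replicate 2 or 3 and 2 without AAV-IFNα replicate 2 or 3. Myc had 7.95, 7.84 and 8.64 in the combination, 7.94, 8.23 and 7.65 with AAV-IFNα and 5.28, 7.04 and 6.22 in Mock. It rose by 1.96 in the combination (adjusted p = 0.00501) and by 1.76 with AAV-IFNα (adjusted p = 0.0039), with a wide spread in Mock (SD 0.88). Rbl1 (p107), an RB family repressor that is itself an E2F target, had 5.36, 5.97 and 6.31 in the combination, 7.04, 6.62 and 6.45 with AAV-IFNα and 4.74, 5.19 and 3.61 in Mock. It rose by 1.37 in the combination (adjusted p = 0.0351) and by 2.19 with AAV-IFNα (adjusted p = 0.000655). E2f6, a repressor of E2F sites, rose by 0.77 in the combination (adjusted p = 0.0118) and by 0.76 with AAV-IFNα (adjusted p = 0.00465).

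Averaged over the 35 measured genes without Cdkn1a, the log2 value was 5.20, 5.50 and 5.58 on the combination arrays, 5.93, 5.81 and 5.65 on the AAV-IFNα arrays and 5.29, 5.32 and 5.30 on the Mock arrays. The AAV-IFNα arrays lay above all others, and the combination arrays spanned Mock. Combination replicate 1 was the lowest of its group for 26 of the 36 genes, whereas it was lowest for 32.6% of all probe sets. AAV-IFNα replicate 3 was the lowest of its group for 18 of 36, against 34.6% of all probe sets. Over the 26 p53 targets and stress arrest genes the order was another: 6.86, 6.84 and 6.93 in the combination, 6.90, 6.90 and 6.70 with AAV-IFNα and 6.41, 6.40 and 6.38 in Mock.

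**Figure D4:**
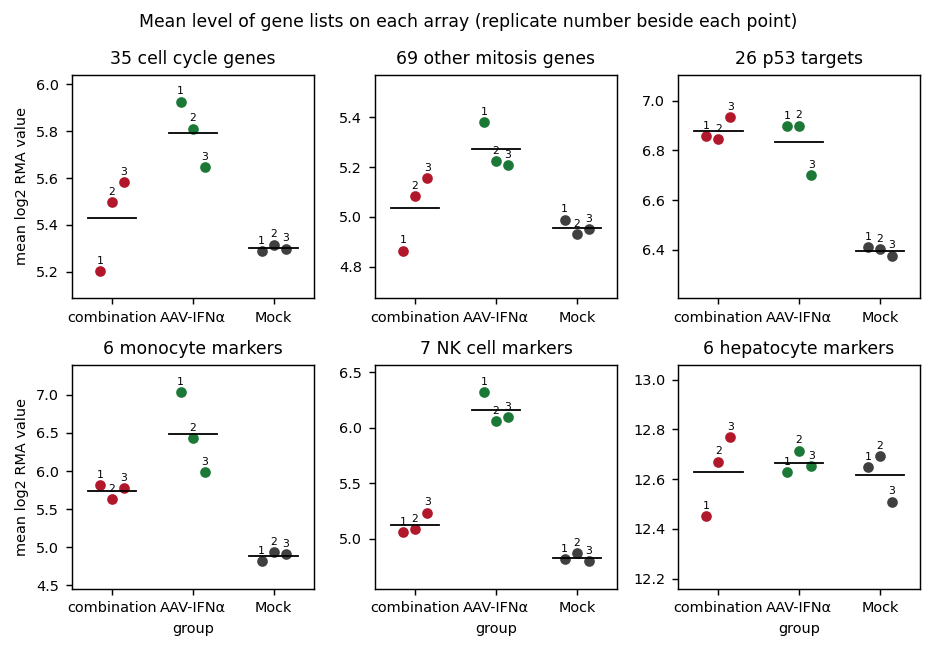
Mean log2 RMA value of each gene list (vertical axis, its own scale in each panel) on each array (points, with replicate numbers) and the group mean (line). The AAV-IFNα points are highest for the cell cycle, mitosis, monocyte and NK cell lists. Both treated groups lie together for the p53 targets and stress arrest genes (titled p53 targets), and the 6 hepatocyte markers average 12.5 to 12.8 on every array.

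Markers of monocytes and NK cells were also highest on the AAV-IFNα arrays. The marker counts are from the filtered fit, which 4 of 6 monocyte and 5 of 7 NK cell markers passed. In that fit 16.3% of probe sets were called in either direction with AAV-IFNα against Mock. The shares were 5.21% in the combination against Mock and 2.6% between the treated groups, and the marker counts are to be read beside these. The hepatocyte markers summed on the linear scale to 42400 to 45100 in the combination, 43600 to 44100 with AAV-IFNα and 42100 to 44300 in Mock, with 0 of 6 called. The 6 monocyte markers summed to 724 to 870 in the combination, 1210 to 2960 with AAV-IFNα and 287 to 320 in Mock, with 2 called higher in the combination and 3 with AAV-IFNα against Mock, and 2 called lower between the treated groups. The 7 NK cell markers summed to 298 to 339, 686 to 966 and 211 to 240 in the same order of groups, with 3 called higher in the combination and 4 with AAV-IFNα against Mock, and 4 called lower between the treated groups. The fit of all probe sets gave the same monocyte counts. Of the NK cell markers it called 3 higher in the combination and 5 with AAV-IFNα against Mock, and 5 lower between the treated groups. The shares of all probe sets called in these directions were 2.43%, 6.99% and 1.4%. The order of the groups was that of Mki67, but the order of arrays within a group differed between lists. Monocyte markers averaged 5.82, 5.63 and 5.78 in the combination, 7.04, 6.43 and 5.98 with AAV-IFNα and 4.82, 4.94 and 4.91 in Mock. NK cell markers averaged 5.06, 5.09 and 5.23 in the combination, 6.32, 6.06 and 6.10 with AAV-IFNα and 4.81, 4.87 and 4.79 in Mock. The 35 cell cycle genes ranked the AAV-IFNα arrays as the monocyte markers did, but the NK cell markers ranked them otherwise. The combination arrays were ranked alike by the cell cycle genes and the NK cell markers, with replicate 1 lowest. Replicate 1 was the highest combination array for the monocyte markers. The part of these cell types in the cell cycle result was not tested.

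Among the other lists, only the T cell and dendritic cell means also lay higher on every AAV-IFNα array than on all other arrays. The 6 measured of 8 T cell markers summed to 200 to 225 in the combination, 264 to 440 with AAV-IFNα and 195 to 227 in Mock, with 0 called in the combination and 3 called higher with AAV-IFNα against Mock, and 1 lower between the treated groups. Their mean was 4.85, 4.88 and 4.92 in the combination, 5.98, 5.26 and 5.47 with AAV-IFNα and 5.07, 4.81 and 4.95 in Mock. The T cell markers ranked the combination arrays as the cell cycle genes did, but not the AAV-IFNα arrays. Kupffer cell markers summed to 2330 to 3070, 2980 to 3340 and 1180 to 1450, with 3 of 6 called higher in each treated group against Mock and 1 called lower between them. Dendritic cell markers summed to 154 to 183, 205 to 314 and 163 to 176, with 0 of 6 called in the combination and 2 called higher with AAV-IFNα against Mock, and 1 lower between the treated groups. Endothelial markers had 0 of 6 called in the combination, 3 called higher and 1 lower with AAV-IFNα against Mock, and 1 lower between the treated groups. Of 7 stellate cell markers 2 were called lower with AAV-IFNα, of 3 measured erythroid markers 1, and no cholangiocyte (4 measured) or neutrophil (5 measured) marker was called. With AAV-IFNα against Mock, the fit of all probe sets called no erythroid marker, and it called 3 dendritic cell markers higher. The B and plasma cell list had 5 measured genes, none of which passed the filter. Chil3 of the monocyte list, Klrb1c and Eomes of the NK cell list and Flt3 of the dendritic cell list were under 5 on all 9 arrays.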

How the data were processed

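Liver RNA of 9 mice was hybridised to Affymetrix arrays, named Clariom S mouse in the methods and another mouse array in the design text. The deposited values are log2 expression from RMA, run by the authors, with 1 column per array, and 0 of its value columns could not be mapped to a sample. Genes were named through the platform annotation, in which 19527 of 22142 probe sets carry 1 symbol and 2615 none. No genome build is named for the probe sets.

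Group means were fitted with limma 3.58.1 in R 4.3.3 over all 9 arrays, with 6 residual and 6.91 prior degrees of freedom, on probe sets above 5 in at least 2 samples of 1 condition, as in the methods, and on all probe sets. The fit was tested on simulated data. The members and gene lists were chosen with earlier results of these data known. Array values are given for 8 genes fixed by name, of which Ccnb1 had no probe set, for every gene called in any comparison and for the 3 smallest p-values of each comparison. E2f8, Cdkn2b, Cdkn2c, Mcm10 and Pola1 were singled out after their values were seen. Of each pathway list up to 3 called genes are named per comparison. Promoters were scanned in RefSeq windows. Alternatives were other filters, priors, normalizations, array weights, a replicate block, a B-statistic above 0, and each array left out. Plots came from matplotlib 3.10.9 (Python 3.11.15).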

Additional observations from a re-analysis of the deposited data

How the results depend on the processing

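Of 10 cell cycle genes called for AAV-IFNα against Mock, 4 were called with a filter above 6 and 6 at a B-statistic above 0, and 6 (without AAV-IFNα replicate 2) to 12 when 1 array was left out. For the combination against Mock, 2 were called and 2 to 4 with 1 array left out (4 without Mock replicate 2 or combination replicate 1). For the combination against AAV-IFNα, 1 was called, against 0 with a mean over all arrays above 5 or a filter above 6, 2 with a trended and robust prior or with only the groups compared, and 0 to 4 with 1 array left out (0 without AAV-IFNα replicate 1 or 2 or combination replicate 1 or 2, 4 without AAV-IFNα replicate 3, and 2 without Mock replicate 2). With the replicate number as a block the counts were 9, 2 and 2 in the same order of comparisons, and Rrm2 was then called lower in combination livers than in AAV-IFNα livers (adjusted p = 0.0334). The labels do not say whether the numbers pair the arrays. Same-numbered arrays deviated from their group means with correlations of -0.13 to 0.22, with 3 of 9 pairs over 0.1. With 3 arrays per group these correlations cannot settle it.

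Directions that turned were all of small differences. For the combination against Mock, Pcna was -0.0564 with another quantile normalization, and Top2a was -0.0033 with array weights and -0.0618 to 0.0722 with 1 array left out. With 1 array left out, Mcm2 with AAV-IFNα against Mock was -0.18 to 0.24, Rrm2 in the combination against Mock -0.28 to 0.15, and E2f1 in the combination against AAV-IFNα -0.0149 to 0.27. Over all alternatives, 858 values of single genes kept their direction and side of the threshold, 27 lost a call, 15 gained one and 9 turned direction; the causes were not tested.

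Scaling moved the median of all probe sets by under 0.1. With another quantile normalization, 1399 probe sets were called higher and 1161 lower with AAV-IFNα against Mock, beside 1655 and 745, and the same number of cell cycle genes, 11, was called higher in the fit of all probe sets. In that fit the 1 gene called lower in the combination against AAV-IFNα, Cenpe, was lost with this normalization (0 called), although it stayed called in the filtered fit (-0.64, adjusted p = 0.0392). A second probe set per gene could not be tried, as no gene had one. The 3 arrays per group and signals near 5 limit what could be detected.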
